A study of Mus musculus with 2 samples.

Results

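Levels of 9 genes were described in the midbrain of the E13.5 mouse embryo: the vesicular glutamate transporter genes Slc17a6, Slc17a7 and Slc17a8, and 6 genes known from the tectum, Barhl1, Barhl2, Tfap2b, Tfap2d, Mab21l1 and Mab21l2. The genes were chosen by name and found by Ensembl identifier, 9 of the 43346 genes in the deposited tables. The samples were 2 total RNA libraries of 1 group, labelled biological replicates 1 and 2, from whole midbrain of B6NCrl embryos aged 13.5 days, with male and female tissue pooled in each. Each library was made from 10 ng of RNA longer than 200 nt with spike-in RNA added, and there was no treatment, mutation or other tissue to compare with. Replicate 1 held 31436613 and replicate 2 held 40215359 estimated reads on genes. Spread is therefore known only between these 2 libraries, and the labels used here do not say how many embryos were pooled.

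Vesicular glutamate transporters load glutamate into synaptic vesicles and so mark neurons that release it. VGLUT2, encoded by Slc17a6, is the common form in thalamus, midbrain and brainstem, VGLUT1 (Slc17a7) is the common form in cortex and hippocampus, and VGLUT3 (Slc17a8) is found in smaller groups such as serotonergic neurons of the raphe. The tectum is the roof of the midbrain and forms the superior and inferior colliculi. Barhl1 and Barhl2 encode homeodomain proteins, Tfap2b and Tfap2d encode AP-2 transcription factors, and Mab21l1 and Mab21l2 encode proteins related to worm MAB-21. Mouse mutants are known in which Barhl1 is needed for neurons of the superior colliculus, Tfap2d for the posterior midbrain and Mab21l1 and Mab21l2 for the eye. The dissected tissue was whole midbrain, so in these bulk libraries the tectum was not separated from the tegmentum, and fewer cells of a type and less RNA per cell cannot be told apart.

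Because the genes come in families, a level is readable only if reads can be assigned to 1 family member. Coding sequences of the paralogs were identical at 80.6% of aligned bases for Mab21l1 and Mab21l2, 72.4% for Slc17a6 and Slc17a7, 71.5% for Slc17a6 and Slc17a8, 70.6% for Slc17a8 and Slc17a7, 70.8% for Barhl1 and Barhl2 and 65.9% for Tfap2b and Tfap2d. The longest run of bases shared by any of these pairs was 26, in Mab21l1 and Mab21l2, and the shortest such run was 14, in Tfap2b and Tfap2d. For 4 pairs the 120 coding bases around the longest aligned run are shown 5′ to 3′ on the coding strand of GRCm38, to show how often bases differ beside the longest stretch that the 2 genes share. Capitals mark bases that differ from the paralog.
Slc17a6 (chr7:51625412-51625531, plus strand): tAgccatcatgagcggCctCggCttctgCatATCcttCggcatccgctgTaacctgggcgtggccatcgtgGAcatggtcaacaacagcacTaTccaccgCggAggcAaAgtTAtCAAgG
Slc17a7 (chr7:45168846-45168965, plus strand): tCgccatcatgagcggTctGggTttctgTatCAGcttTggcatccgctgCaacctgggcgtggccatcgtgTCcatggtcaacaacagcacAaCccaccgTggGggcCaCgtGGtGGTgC
Barhl1 (chr2:28909878-28911416, minus strand): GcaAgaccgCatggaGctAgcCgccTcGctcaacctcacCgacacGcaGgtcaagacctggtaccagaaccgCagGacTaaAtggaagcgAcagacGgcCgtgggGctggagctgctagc
Barhl2 (chr5:106453625-106455524, minus strand): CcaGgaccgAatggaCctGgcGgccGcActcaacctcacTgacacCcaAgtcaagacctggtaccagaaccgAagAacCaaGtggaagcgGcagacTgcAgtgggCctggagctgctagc
Tfap2b (chr1:19231106-19234120, plus strand): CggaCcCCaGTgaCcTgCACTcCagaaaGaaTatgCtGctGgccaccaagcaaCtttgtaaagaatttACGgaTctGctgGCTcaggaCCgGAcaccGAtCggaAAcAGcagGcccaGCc
Tfap2d (chr1:19142930-19148374, plus strand): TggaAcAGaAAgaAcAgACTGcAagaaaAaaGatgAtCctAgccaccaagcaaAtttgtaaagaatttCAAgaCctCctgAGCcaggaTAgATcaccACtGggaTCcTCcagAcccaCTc
Mab21l1 (chr3:55783156-55783275, plus strand): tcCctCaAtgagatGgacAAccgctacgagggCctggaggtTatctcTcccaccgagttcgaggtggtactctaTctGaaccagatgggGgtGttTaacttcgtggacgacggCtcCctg
Mab21l2 (chr3:86547410-86547529, minus strand): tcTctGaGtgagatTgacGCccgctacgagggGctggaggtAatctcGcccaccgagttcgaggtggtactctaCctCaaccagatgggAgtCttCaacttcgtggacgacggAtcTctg
The windows held 24 differing bases in the transporter pair, 19 in the Barhl pair, 41 in the AP-2 pair and 16 in the Mab21l pair. Those of Barhl1, Barhl2, Tfap2b and Tfap2d each span 2 exons, so their coordinates include an intron. The deposited posterior SD of the read count, which measures how freely the authors' estimation could move reads between genes, was 0 in both libraries for 7 of the 9 genes. It was 1.53 and 1.93 reads for Mab21l2 and 0.58 and 0.38 reads for Tfap2d in replicates 1 and 2, small beside 3640 and 6344 expected reads of Mab21l2 and 1094 and 1802 of Tfap2d.

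**Figure D1:**
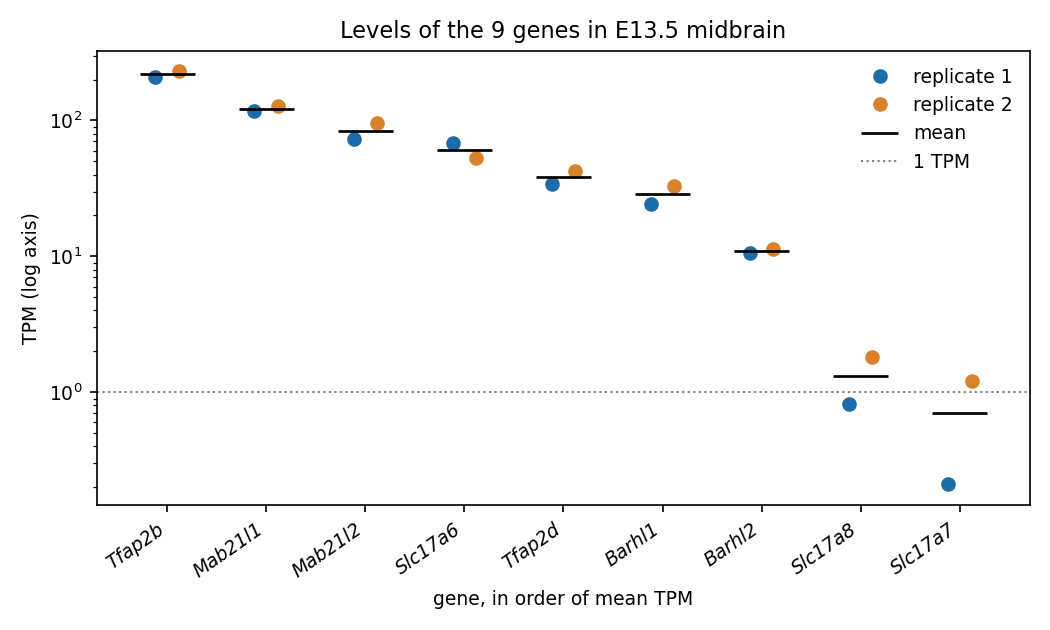
TPM of each of the 9 genes on a log axis, in order of mean TPM, with a point for each library and a bar at the mean. Tfap2b leads at 208 and 229 TPM in replicates 1 and 2, and Slc17a8 and Slc17a7 lie below 1 TPM in replicate 1 and above it in replicate 2.

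Levels spanned from Tfap2b, among the more abundant protein-coding RNAs of the tissue, to Slc17a7, which was near the limit of detection. Values are in TPM, which divides reads by gene length and scales each library to a common total, and so allows genes to be compared. Detection, set at 1 TPM or more in each library, held for 7 of the 9 genes, against 34.3% of all genes. That share takes in noncoding entries, since 21474 of the 43346 genes are protein-coding, and a share over protein-coding genes alone was not computed. By mean TPM, Slc17a8 lay above only 40.5% of protein-coding genes. The 2 that missed it were Slc17a8 and Slc17a7, in replicate 1 alone. Of the 8 steps between neighbours in the order of mean TPM, 7 were called apart by the interval described next. The step that was not lay between Slc17a8 and Slc17a7. A step or a difference between related genes was taken as the log2 difference of TPM + 0.1 within each library, with a 95% interval from variances that limma moderated over 14880 genes. It was called apart where the interval excluded 0. The step from Mab21l2 to Slc17a6 was 0.11 and 0.84 in replicates 1 and 2, with an interval of 0.18 to 0.76. That from Slc17a6 to Tfap2d was 1.00 and 0.33, with an interval of 0.38 to 0.95. The single libraries lay outside the interval in both steps, so these sizes are less certain than the direction. With the spread taken from all genes, low ones included, 3 of the 8 steps were apart, those from Tfap2b to Mab21l1, from Barhl1 to Barhl2 and from Barhl2 to Slc17a8. With the spread from genes with a TPM of 0.1 or more, 6 were, the step from Tfap2d to Barhl1 (-0.03 to 0.87) being lost.

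Among the transporters, Slc17a6 (chromosome 7, 51622006 to 51671119, plus strand) supplied nearly all of the RNA. It stood at 67.8 TPM in replicate 1 and 53.3 TPM in replicate 2, a mean of 60.5 ± 10.3 (SD, n = 2), from 5733 and 6010 expected reads, and above 87.1% of protein-coding genes. Slc17a8 (chromosome 10, 89574020 to 89621253, minus strand) stood at 0.82 and 1.81 TPM in replicates 1 and 2, from 72 and 202 reads. Slc17a7 (chromosome 7, 45163949 to 45176142, plus strand) stood at 0.21 and 1.21 TPM, from 12 and 92 reads. Both libraries thus had the same order, with Slc17a6 far above the other 2, and replicate 2 held more of each low transporter. Of the summed TPM of the 3 genes, Slc17a6 made up 98.5% in replicate 1 and 94.6% in replicate 2, Slc17a8 1.19% and 3.22%, and Slc17a7 0.31% and 2.15%.

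Slc17a6 exceeded Slc17a8 by 6.21 and 4.80 on the log2 scale in replicates 1 and 2, a mean of 5.51 with an interval of 4.88 to 6.13, or 45.4-fold. It exceeded Slc17a7 by 7.78 in replicate 1 and 5.35 in replicate 2, with an interval of 5.53 to 7.59 for the mean of 6.56. The values of the single libraries lay outside these intervals in each case, because the moderated spread is smaller than that of these pairs alone, so the sizes are less certain than the direction. The size of the larger difference also rests on the pseudocount, since Slc17a7 was low: it was 5.22 with a pseudocount of 1 and 6.86 with 0.01. Slc17a8 lay above Slc17a7 by 1.57 in replicate 1 and 0.54 in replicate 2. Its mean difference of 1.06 had an interval of -0.11 to 2.23, so the 2 low transporters were not told apart. Posterior mean TPM gave an interval above 0 (0.06 to 2.11). So did the spread of this pair's own difference, moderated towards that of other genes and chosen after seeing the data (0.30 to 1.81). No interval was taken from the 2 values of this pair alone.

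**Figure D2:**
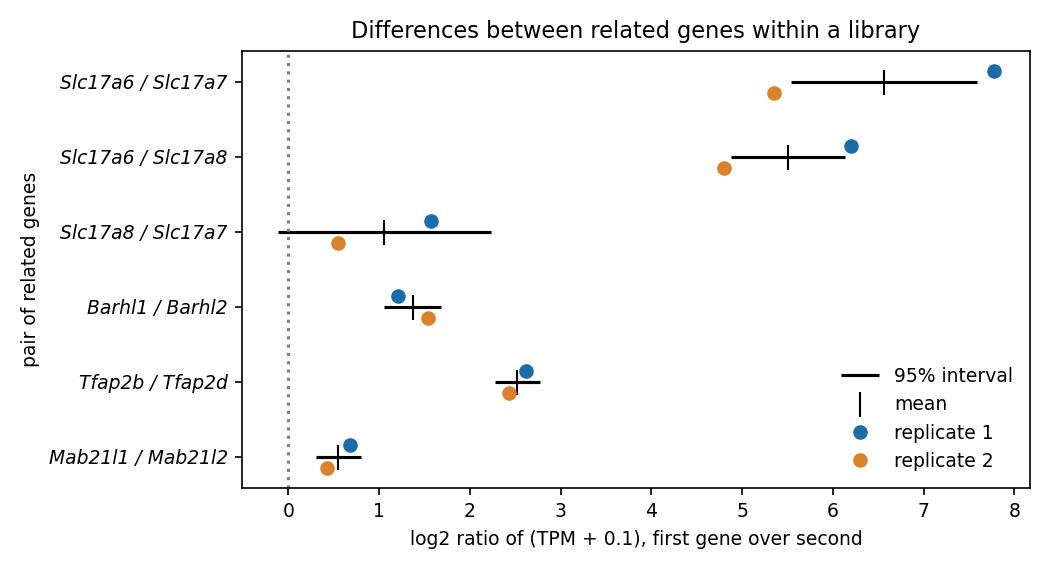
Log2 difference of TPM + 0.1 between related genes within each library, with the gene named on the left of the stroke on top, a point for each library, and the mean with its 95% interval. The interval excludes 0 for 5 of 6 pairs, and spans -0.11 to 2.23 for Slc17a8 over Slc17a7.

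The other members of the SLC17 family, which transport organic anions, differ in their tissues and substrates. Slc17a5, the sialic acid carrier of lysosomes, stood at 14.9 and 14.1 TPM in replicates 1 and 2. Slc17a9, the vesicular nucleotide transporter, stood at 0.22 and 0.48 TPM and Slc17a1 at 0.03 and 0.06 TPM. Slc17a2, Slc17a3 and Slc17a4 were listed at 0 in both libraries. Slc17a6 was thus the most abundant of the 9 family genes in both libraries. Of the 9, 2 reached 1 TPM in both, Slc17a6 and Slc17a5, against 34.3% of all genes, noncoding entries included.

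Genes that make, recycle and take up glutamate were nearly all detected, 13 of 14, against 34.3% of all genes, noncoding entries included. None of them was 2-fold apart between the libraries, and of all genes averaging 50 or more reads 0.738% were. Got2, the mitochondrial aspartate aminotransferase, stood at 140 and 126 TPM in replicates 1 and 2, the amino acid carrier Slc38a2 at 119 and 111, and glutamine synthetase, Glul, at 105 and 101. Gls2, a glutaminase known from liver, was the lowest at 1.18 and 0.88 TPM. Beside the GABAergic genes, Slc17a6 exceeded the vesicular GABA transporter Slc32a1 by 3.66 and 3.02 on the log2 scale in replicates 1 and 2. Its difference from Gad2, a GABA-synthesizing enzyme, was 0.01 in replicate 1 and -0.37 in replicate 2. All 10 genes of the GABAergic list were detected, with Gata3 (77.6 and 93.1 TPM), Sox14 (65.9 and 87.5) and Gad2 (67.2 and 69.1) highest and Slc32a1 lowest (5.29 and 6.47).

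The AP-2 gene Tfap2b (chromosome 1, 19208914 to 19238576, plus strand) was the most abundant of the 9. It stood at 208 TPM in replicate 1 and 229 TPM in replicate 2, a mean of 219 ± 15.4 (SD, n = 2), from 9310 and 13314 expected reads, and above 97.1% of protein-coding genes. Tfap2d (chromosome 1, 19103022 to 19166346, plus strand) stood at 33.8 and 42.5 TPM, a mean of 38.2 ± 6.12. The higher of the pair was Tfap2b in both libraries. Tfap2b exceeded Tfap2d by 2.61 and 2.43 on the log2 scale in replicates 1 and 2. The mean of 2.52 had an interval of 2.27 to 2.77, or 5.75-fold. Transcripts typed as coding summed to 135 and 146 TPM for Tfap2b and 32.2 and 39.3 TPM for Tfap2d. By these sums the fold was smaller in both libraries, and no interval was taken for it. The 2 genes lie next to each other in the same orientation, with 42567 bp and 0 annotated genes between the end of Tfap2d and the start of Tfap2b.

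The other AP-2 genes were lower than both. Tfap2a, which is known from neural crest and early ectoderm, stood at 6.45 and 6.2 TPM in replicates 1 and 2, Tfap2e at 0.68 and 1.3, and Tfap2c at 0.44 and 1.27. Tfap2c was 2.90-fold higher in replicate 2, with a counting interval of 1.83 to 4.76, on 24 and 90 reads. Its mean met the minimum used for calls only through replicate 2, where it is high. Tfap2e was 1.98-fold higher there (1.25 to 3.21), on 27 and 69 reads, a mean below the minimum of 50 used for calls. Of genes whose proteins bind AP-2 factors, the coactivator Cited2 stood at 59.7 and 59.8 TPM, the repressors Kctd15 at 28.5 and 32.8 and Kctd1 at 16.5 and 15.4, and Cited4 at 0.3 and 0.72. AP-2 factors are also made by neural crest cells. Of a list of 6 neural crest and mesenchyme genes 3 were detected, against 34.3% of all genes, noncoding entries included. The list summed to 61.6 TPM in replicate 1 and 73.4 TPM in replicate 2. The collagen gene Col1a1 gave 42.2 and 53.9 of this, Ets1, which endothelium also makes, 14.95 and 14.8, and Prrx1 3.03 and 2.81. Foxd3, which is needed by early crest, stood at 0.07 and 0.03 TPM. No gene of the list was at 0, and the part of such cells in the AP-2 values was not tested.

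The Mab21l genes were the next most abundant. Mab21l1 (chromosome 3, 55782510 to 55785001, plus strand) stood at 117 and 128 TPM in replicates 1 and 2, a mean of 122 ± 7.85, from 6268 and 9156 expected reads. Mab21l2 (chromosome 3, 86545581 to 86548629, minus strand) stood at 72.95 and 95.35 TPM, a mean of 84.2 ± 15.8. Mab21l1 was higher than Mab21l2 in both libraries. The difference was 0.68 and 0.42 on the log2 scale, with a mean of 0.55 and an interval of 0.30 to 0.80, or 1.47-fold. With the spread taken from all genes, with no filter on low values, the interval was -0.18 to 1.28 and the pair was no longer apart. The fold and the place of Mab21l2 in the order rest on the sum of its transcripts. A model typed as a processed pseudogene held 93.1% and 93.9% of that sum, and the model typed as coding stood at 5.0 and 5.86 TPM. The coding bases of Mab21l2 lie inside both models, so this split does not separate coding from noncoding RNA. The other family genes were lower, with Mb21d2 at 7.72 and 6.56 TPM, the DNA sensor Cgas at 0.38 and 0.40 and Mab21l3 at 0.28 and 0.27.

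Both Mab21l genes lie inside a larger gene on the opposite strand, and no source used here says whether the authors' counting was stranded. Mab21l1 lies in Nbea, a large scaffold protein gene of synapses that stood at 17.4 and 15.5 TPM. Its 981 overlapping exon bases belong to 1 retained-intron transcript of Nbea that has no row in the deposited tables. Mab21l2 lies in Lrba, which stood at 4.17 and 5.1 TPM. Here 1035 exon bases overlap a retained-intron transcript given 5.78 and 8.76 expected reads in replicates 1 and 2, and 62 bases overlap a coding transcript given 160 and 260. Tfap2d shares 171 exon bases with the antisense gene Gm15825, which was given 4.26 and 1.08 reads. Gm10075 within Tfap2d, Gm45072 within Slc17a6 and Mir7055 within Slc17a7 share 0 exon bases with them. For Mab21l2 and Tfap2d the listed partner transcripts had far fewer reads than the gene they overlap. Nbea as a whole gene had 3797 and 4512 reads, and without strand information reads of an overlap cannot be told apart.

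The Barhl genes were the lowest of the tectal genes. Barhl1 (chromosome 2, 28907679 to 28916668, minus strand) stood at 24.5 and 32.8 TPM in replicates 1 and 2, a mean of 28.6 ± 5.86, from 1080 and 1939 expected reads. Barhl2 (chromosome 5, 106452523 to 106458166, minus strand), which is also known from retinal amacrine and ganglion cells, stood at 10.6 and 11.3 TPM, a mean of 10.9 ± 0.467, from 470 and 666 reads. Barhl1 was higher in both libraries, by 1.20 and 1.53 on the log2 scale. The mean difference of 1.37 had an interval of 1.05 to 1.68, or 2.58-fold. Transcripts typed as coding summed to 17.6 and 19.0 TPM for Barhl1 in replicates 1 and 2, while all of the Barhl2 level is typed as coding. By these values Barhl1 was still higher in both libraries, by a smaller fold for which no interval was taken. The more distant BAR homeobox genes were near 0, Barx1 at 0 and 0.12 TPM and Barx2 at 0.05 and 0.1.

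Of 12 other transcription factors known from the tectum or the midbrain, 12 were detected, against 34.3% of all genes, noncoding entries included. The highest were Pou4f1, a POU factor of tectal neurons, at 101 and 122 TPM in replicates 1 and 2, Otx2 at 104 and 117, and Lhx9 at 115 and 101. En2, an Engrailed factor of posterior midbrain, was the lowest at 1.6 and 1.72 TPM. Tfap2b lay above every gene of this list in both libraries.

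**Figure D3:**
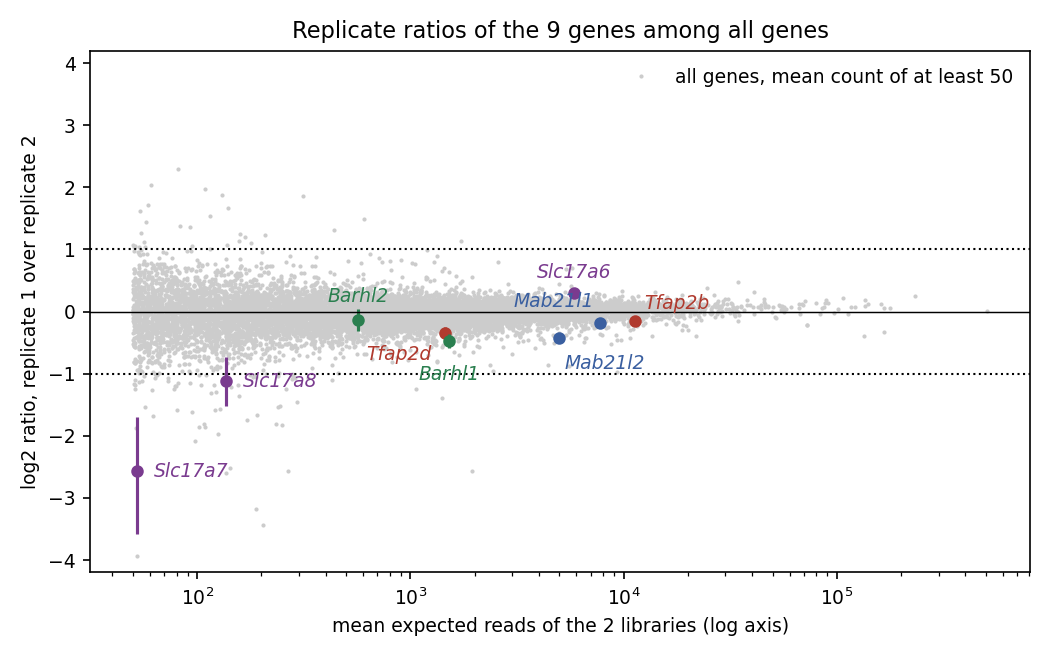
Log2 ratio of replicate 1 over replicate 2 against the mean number of expected reads on a log axis, for genes averaging 50 or more reads (grey) and the 9 genes with their 95% counting intervals (colours by family). Dotted lines mark 2-fold, and 4 genes lie outside the vertical range. Slc17a7 at -2.57 and Slc17a8 at -1.12 lie past 2-fold, and the other 7 genes lie within it.

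The replicates were then compared for each gene from expected reads scaled by TMM, which equalizes the bulk of genes between libraries. With 1 library on each side no test is possible. Genes were called at 2-fold or more where the mean count reached 50, and the 95% intervals, exact Clopper-Pearson, cover counting error only. Of the 9 genes 2 were past this fold, Slc17a7 and Slc17a8, against 0.738% of 14366 genes. Both were higher in replicate 2, and 0.522% of the same 14366 genes were at least 2-fold higher there. Slc17a7, with 12 and 92 reads, met the minimum only through replicate 2, where it is high, so its call is partly set by that minimum. The pair also had the fewest reads of the 9 genes, means of 52 and 137, and among genes with a mean count of 50 to 150, a range chosen after these counts were seen, 3.17% were past 2-fold.

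Slc17a7 was 5.93-fold higher in replicate 2, with an interval of 3.24 to 11.9, and Slc17a8 was 2.17-fold higher with an interval of 1.65 to 2.88. Slc17a6 went the other way, 1.23-fold higher in replicate 1 (1.19 to 1.28), and was the only one of the 9 with a positive log2 ratio. The other 8 were higher in replicate 2, as were 51.0% of all genes with enough reads. Its absolute log2 ratio of 0.30 was larger than that of 86.8% of genes. The ratios were -0.48 for Barhl1, -0.43 for Mab21l2, -0.35 for Tfap2d, -0.18 for Mab21l1, -0.15 for Tfap2b and -0.13 for Barhl2. Barhl2 was the only gene whose counting interval spanned no difference (0.97 to 1.24 for replicate 2 over replicate 1). The median over the 9 genes was -0.35, beside a median of -0.004 over all genes and a median absolute ratio of 0.10. Of all TPM, spike-ins held 5.36% in replicate 1 and 9.39% in replicate 2, which lowers gene TPM in replicate 2 and moved the median ratio to 0.04 when TPM was used. All 9 genes had the same sign with that scaling.

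Markers of other regions moved between the libraries as well, and some did so in the same direction as the low transporters. Of 7 cortical genes, from a tissue in which VGLUT1 is common, 7 were higher in replicate 2, against 51.0% of all genes, with a median log2 ratio of -0.46, and their summed TPM was 46.2 in replicate 1 and 62.2 in replicate 2. Past 2-fold were Emx1 (1.5 and 5.61 TPM in replicates 1 and 2), Eomes (0.56 and 2.0) and Tbr1 (0.99 and 3.07). Of all genes with enough reads 0.738% were past 2-fold, and of those averaging 50 to 150 reads 3.17%. Emx1 (41 and 208 reads) and Eomes (36 and 168 reads) met the minimum mean count only through replicate 2, where they are high. Their calls are therefore partly set by that minimum. The most abundant cortical genes, Neurod6 (18.9 and 22.4 TPM), Emx2 (13.4 and 15.9) and Neurod2 (5.49 and 7.3), were within 2-fold. Eomes was also the lowest of the list by mean TPM. Of 6 serotonergic genes, a cell type in which VGLUT3 is found, all were higher in replicate 2, against 51.0% of all genes. Their sums were 43.7 and 61.4 TPM, and their median of -1.04 fell between Fev at -1.59 and Gata2 at -0.485. Past 2-fold were the synthetic enzyme Tph2 (1.76 and 6.07 TPM), the serotonin transporter Slc6a4 (1.61 and 5.51) and the transcription factor Fev (1.49 and 3.95). Fev, with 33 and 128 reads, also met the minimum only through replicate 2. The monoamine carrier Slc18a2 (22.2 and 24.1 TPM), Gata2 (14.6 and 19.8) and Lmx1b (2.04 and 2.09) serve other neurons too and were within 2-fold. No gene of either list was at 0. The part of cortical or serotonergic RNA in Slc17a7 and Slc17a8 was not tested.

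Diencephalic genes, from a region where VGLUT2 is common, had a median log2 ratio of 0.31, and their summed TPM was 929 in replicate 1 and 696 in replicate 2. Tcf7l2, a factor of thalamus and pretectum, gave most of this sum, with 647 and 454 TPM. Gbx2, a factor of thalamic neurons, stood at 59.7 and 26.3 TPM and was the only one past 2-fold, 2.20-fold higher in replicate 1 (2.06 to 2.36). Directions were mixed within the list, 4 of 7 higher in replicate 1 and 3 of 7 higher in replicate 2. Lhx2 (73.7 and 76.1 TPM) and Lef1 (66.6 and 70.4) were higher in replicate 2, and the lowest, Prox1 (9.74 and 7.5), in replicate 1. In the rhombic lip and cerebellum list, with sums of 148 and 123 TPM, Olig3 stood at 21.2 and 7.32 TPM, 2.81-fold higher in replicate 1, while Zic4 (45.9 and 41.3), Pax6 (33.3 and 30.9), Neurod1 (31.75 and 30.1) and the lowest, Ptf1a (0.57 and 0.56), were within 2-fold. The list's median was 0.05, and of its 6 genes with enough reads 5 were higher in replicate 1 and 1 in replicate 2. The source of the Olig3 difference was not tested. The part of diencephalic RNA in the ratio of Slc17a6 was not tested. The tectal transcription factors, by comparison, had a median of -0.18 and none past 2-fold, against 0.738% of all genes with enough reads. Of the 12 factors, 11 were higher in replicate 2, against 51.0% of all genes with enough reads. The GABAergic genes had a median of -0.33 with none past 2-fold.

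**Figure D4:**
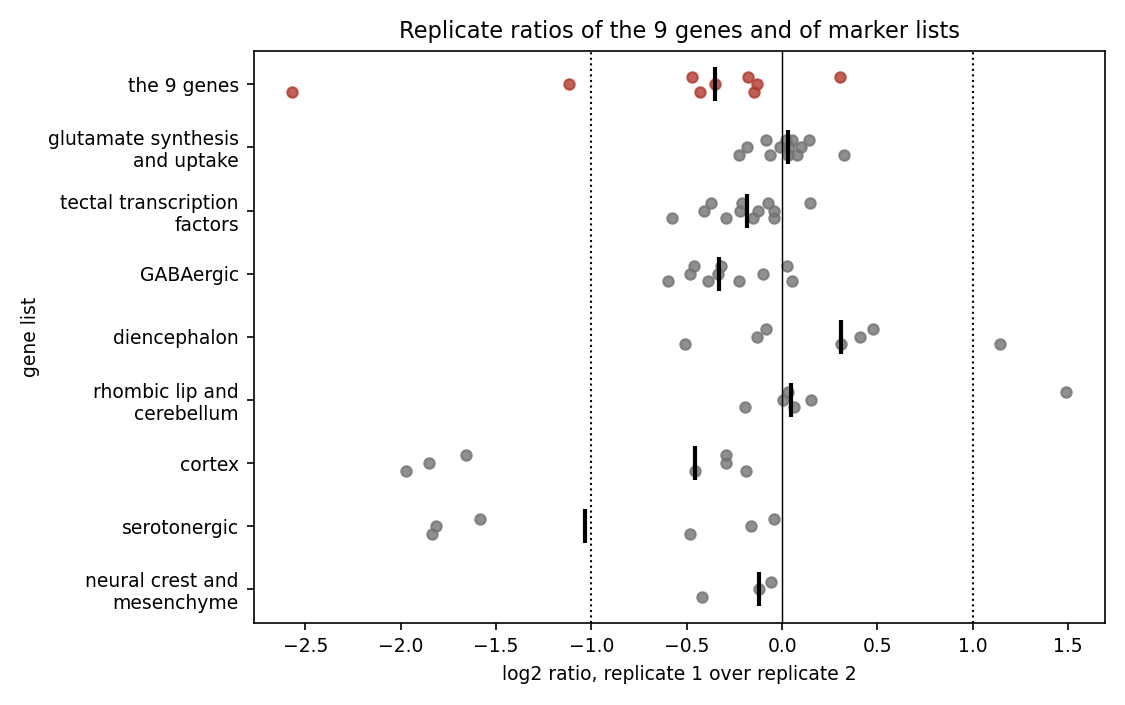
Log2 ratio of replicate 1 over replicate 2 for the 9 genes (red) and for genes of 8 lists that averaged 50 or more reads (grey), with a tick at each median and dotted lines at 2-fold. Medians range from -1.04 for serotonergic genes to 0.31 for diencephalic genes, and the 9 genes have a median of -0.35.

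Transcript use was described from the deposited percent of a gene's abundance given to each annotated transcript. Of the 9 genes 4 have 1 transcript in the tables (Slc17a6, Slc17a7, Barhl2 and Mab21l1), and 5 have several. Among the 4 of these 5 with at least 1 TPM in both libraries, 4 had the same leading transcript in both, against 90.9% of 9965 genes with several transcripts. Such shares are estimates from short reads, with no error given per library.

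Barhl1 had the least stable shares. Its leading transcript, ENSMUST00000113849, took 54.6% in replicate 1 and 31.8% in replicate 2, a gap of 22.8 percentage points, and the largest gap of a gene was smaller than this in 94.0% of genes with several transcripts. ENSMUST00000050776, a coding transcript that reaches further on the 3′ side, took 17.1% and 25.0%, and the noncoding transcripts together took 28.3% and 42.0%. In expected reads, the leading transcript had 537 and 558, while ENSMUST00000050776 had 299 and 782, so by share of reads the leading transcript differed between the libraries. Nearly all of the additional Barhl1 reads of replicate 2, before scaling for depth, were assigned to transcripts other than ENSMUST00000113849.

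Tfap2b was divided among 5 transcripts in nearly the same way in both libraries. ENSMUST00000187754 led with 26.1% in replicate 1 and 27.0% in replicate 2, followed by ENSMUST00000064976 with 24.2% and 23.0%. A pair of short retained-intron transcripts together took 34.95% and 36.6% of abundance but 7.85% and 8.44% of expected reads, since a short transcript is credited with more molecules per read. By share of reads, ENSMUST00000027059 led in replicate 1 (38.1%, and 35.55% in replicate 2) and ENSMUST00000187754 in replicate 2 (36.4%, and 34.1% in replicate 1). The level of Tfap2b in TPM therefore depends in part on the short transcripts, which gave 72.6 of 208 TPM in replicate 1 and 83.9 of 229 TPM in replicate 2. Without them its coding transcripts summed to 135 and 146 TPM, above the 117 and 128 TPM of Mab21l1.

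Tfap2d gave 95.2% and 92.5% to the coding transcript ENSMUST00000037294 in replicates 1 and 2. Slc17a8 gave 100% and 92.6% to ENSMUST00000020102, on 72 and 196 reads. Mab21l2 gave 93.1% and 93.9% to ENSMUST00000191695 (86546050 to 86548629), a model that the M21 annotation types as a processed pseudogene, and 6.86% and 6.15% to the coding model ENSMUST00000077524 (86545581 to 86548283). These models overlap over most of their length on the same strand and belong to the same gene entry. The level of Mab21l2 is therefore their sum, and the model typed as coding stood at 5.0 and 5.86 TPM alone. Both models have 1 exon and hold the coding bases of Mab21l2, so the shares do not separate coding from noncoding RNA.

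**Figure D5:**
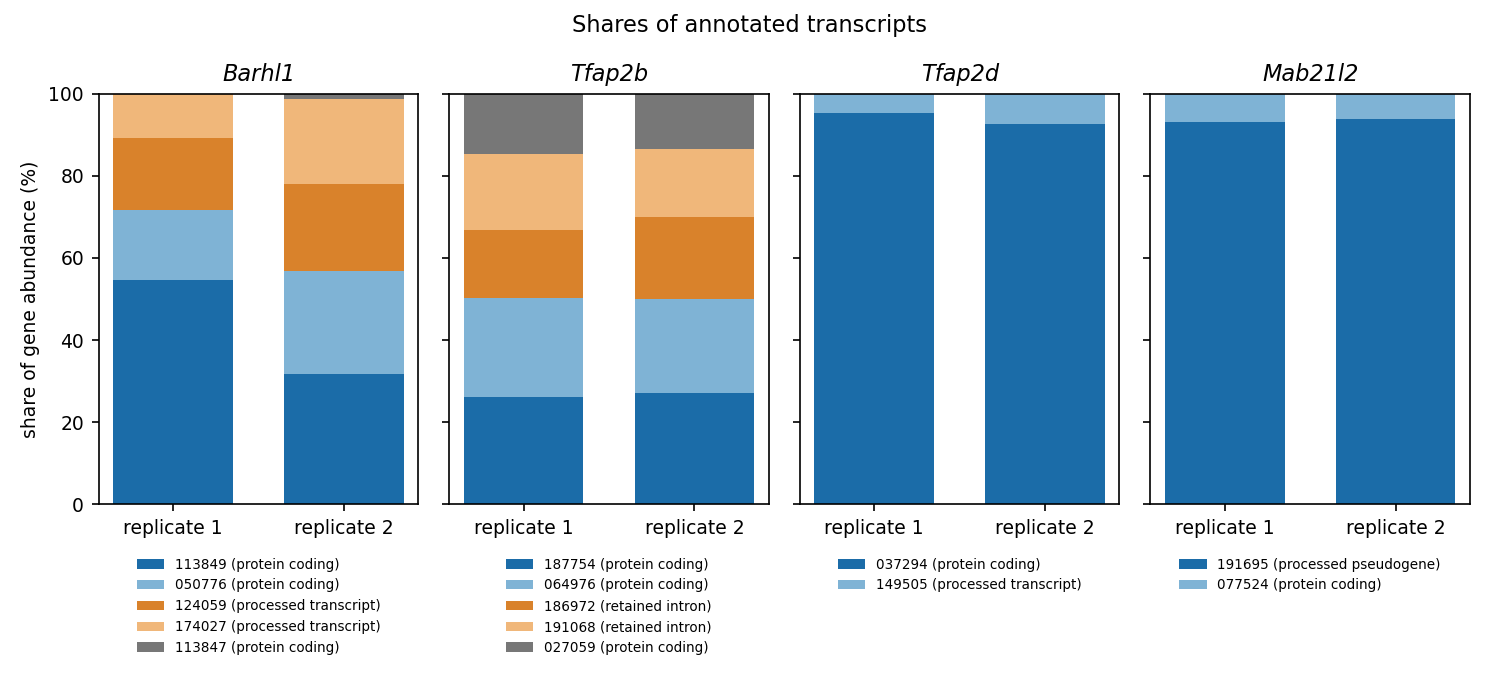
Share of gene abundance (percent) given to each annotated transcript of Barhl1, Tfap2b, Tfap2d and Mab21l2 in each library, with the last digits of the transcript identifier and its type in the legends. The lowest segment of Barhl1 is 54.6% in replicate 1 and 31.8% in replicate 2, while those of the other 3 genes differ by less than 3 percentage points.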

How the data were processed

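Total RNA of 2 libraries of 1 group was analysed. Per the text that accompanies each library, the authors deposited gene and transcript tables on mm10 and GENCODE M4. The deposited expected counts are estimated reads per gene or transcript. The deposited TPM values are scaled per length to a common total with spike-ins included, per the file headers and column sums. FPKM, also deposited, divides by length and by the library's reads, and the deposited percent values are transcript shares of a gene, per the file headers. Deposited bounds of a TPM interval, a signal, were not used, and the posterior SD of the count, a score, was read as the authors deposited it. The sources used here name no program, version or use of strand.

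Symbols, positions and coding sequences came from GENCODE M21 on GRCm38, the assembly that mm10 names, and 42462 of 43346 identifiers matched. Mb21d1 was matched under its current symbol, Cgas. Coding sequences were aligned with Biopython 1.88. Expected counts were rounded and scaled by TMM with edgeR 4.0.16, and variances of log2(TPM + 0.1) were moderated with limma 3.58.1 in R 4.3.3 over genes that reached 1 TPM in each library plus the 9 genes. This scale makes folds of low genes too small. Intervals cover only the spread between these libraries, which may be technical, or counting error, and reads lack molecular identifiers, so they are not independent molecules. Procedures were tested on simulated data, with the same dispersion for all genes and genes drawn independently. Coverage of the intervals was checked there only for genes with 1 TPM or more in each library, unlike Slc17a7 and Slc17a8.

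The 9 genes and all lists were chosen with earlier results of these data known, and some genes of the cortical list are not reported here and were left out of its values. Named were the 9 genes, all genes of their families, the 3 highest and the lowest gene of each other list, genes at least 2-fold apart, and genes that overlap a member. Alternatives were other pseudocounts, FPKM, posterior mean TPM, scaled reads per kb, other filters, DESeq2 1.42.0 size factors, library totals, a 1.5-fold rule and each library alone.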

Additional observations from a re-analysis of the deposited data

How the results depend on the processing

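Of 115 alternative values 0 reversed in direction. Of these, 110 kept their call or, for counts, stayed within 1.5 times the reported count, and values of single libraries among them have a direction but no interval. The difference of Slc17a8 over Slc17a7 was called apart in 2 alternatives. It was 1.09 with posterior mean TPM (interval 0.06 to 2.11), and the same 1.06 with the spread of the pair itself (0.30 to 1.81). The spread of the pair itself was also moderated towards that of other genes, and this alternative was chosen after seeing the data. With no filter on low values the difference of Mab21l1 over Mab21l2, still 0.55, was no longer apart, and 3 of 8 neighbours in the order of levels were apart in place of 7. The number of family pairs apart was 4 in that setting and 6 with posterior mean TPM or the spread of the pair itself, in place of 5. The number of neighbours apart was 6 with the spread from genes of at least 0.1 TPM and 8 with posterior mean TPM, both added after seeing the data, and 8 with the spread of the pair itself. The setting with no filter takes the spread from 43346 genes, most of them low. By share of expected reads, 2 genes in place of 4 had the same leading transcript, the exceptions being Barhl1 and Tfap2b. Single libraries gave 0.54 (without replicate 1) and 1.57 (without replicate 2) for Slc17a8 over Slc17a7, and 5.35 and 7.78 for Slc17a6 over Slc17a7. At 0.5 TPM 8 genes were detected, and at 10 expected reads 9 were. In replicate 2 alone 9 genes reached 1 TPM, and 7 did in replicate 1 alone. Slc17a7 had 12 and 92 reads, and the spread of its ratio beyond counting error is unknown. No comparison of groups, paired or not, was possible because there is 1 group. Differences between genes were taken within each library, but the main interval adds the variances of the 2 genes as if they were independent.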
